A study of Mus musculus with 6 samples.

Results

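The genes described here are 6 that encode bone morphogenetic protein (BMP) ligands, Bmp2, Bmp3, Bmp4, Bmp5, Bmp6 and Bmp7, out of 21755 protein-coding genes of the GENCODE annotation of the mouse genome (build GRCm38, also called mm10). They were chosen by name, with earlier results of these data known. For each gene, the peaks of monomethylation of histone H3 at lysine 4 (H3K4me1) were collected that overlapped the gene body with 5 kb on either side. To these were added the peaks in intergenic DNA within 500 kb of the gene whose midpoint had a start site of that gene as its nearest protein-coding start site. The gene peaks and flank peaks together are called the locus of the gene. The mark was profiled by CUT&Tag (antibody-guided tagmentation followed by sequencing) on wild-type whisker pads at embryonic day 12 of strain B6/J2, each dissociated to single cells. The series has 3 samples made with the H3K4me1 antibody and 3 made with control IgG, which were not analysed here. Replicate numbers are the pad numbers of the sample titles. All samples were whole pads without genetic modification, so mesenchyme, ectoderm and other cells of the pad were measured together, and a mark in few cells cannot be told apart from a weaker mark in many.

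BMPs are secreted ligands of the TGF-β superfamily that bind type I and type II receptor kinases, which phosphorylate Smad1, Smad5 and Smad9. The phosphorylated Smads enter the nucleus with Smad4 and act on targets such as the Id and Msx genes, while secreted antagonists such as noggin and chordin keep the ligands from their receptors. In hair and whisker follicles, Bmp4 is known as a signal of the dermal condensate and Bmp2 as a signal of the epithelial placode, and both take part in spacing the placodes. H3K4me1 is found at enhancers, in use or poised, and beside promoters, where it tends to flank the start site itself.

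The DNA under the strongest region of each locus is shown first, because the positions and levels below refer to these sites. A region is the merged span of peaks that overlapped by at least 1 bp between replicates. Each sequence is 200 bp of GRCm38, plus strand, centred on the highest pileup of the top region, taken as the median of its positions in the replicates. The top region is the one in all 3 replicates whose mean percentile was highest. A percentile is the rank of the total signal of a peak within the list of its replicate. Where a region held more than 1 peak of a replicate, the highest of their percentiles is given. Capitals mark the letters of a homeodomain motif (TAATTA) or an E-box (CATATG, or CAGATG read on either strand). The Bmp2 site lies at chr2:133566089-133566288, beyond the 3′ end of the gene. The Bmp4 site lies at chr14:46381722-46381921, in an intron of the predicted coding gene Gm15217, which overlaps the 3′ end of Bmp4. The others lie in introns of their own genes, at chr9:75800688-75800887 (Bmp5), chr13:38351861-38352060 (Bmp6), chr2:172935840-172936039 (Bmp7) and chr5:98857683-98857882 (Bmp3). The Bmp6 site is not shared by all replicates. It lay under no peak of replicate 2, whose peak in this region ended at 38348866. In replicate 1 it lay under the weaker peak of the region, at percentile 30.5.
Bmp2: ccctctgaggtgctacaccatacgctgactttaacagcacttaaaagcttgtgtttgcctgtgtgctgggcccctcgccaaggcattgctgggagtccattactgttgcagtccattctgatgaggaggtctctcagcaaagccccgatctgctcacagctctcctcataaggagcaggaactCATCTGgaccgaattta
Bmp4: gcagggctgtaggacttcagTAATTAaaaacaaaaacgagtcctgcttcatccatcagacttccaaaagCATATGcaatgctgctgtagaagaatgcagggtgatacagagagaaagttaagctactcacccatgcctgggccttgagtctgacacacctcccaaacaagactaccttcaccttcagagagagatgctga
Bmp5: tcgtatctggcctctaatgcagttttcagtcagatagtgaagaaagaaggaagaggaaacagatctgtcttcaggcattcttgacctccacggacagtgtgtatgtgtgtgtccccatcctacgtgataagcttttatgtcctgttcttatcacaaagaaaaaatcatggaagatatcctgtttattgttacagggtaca
Bmp6: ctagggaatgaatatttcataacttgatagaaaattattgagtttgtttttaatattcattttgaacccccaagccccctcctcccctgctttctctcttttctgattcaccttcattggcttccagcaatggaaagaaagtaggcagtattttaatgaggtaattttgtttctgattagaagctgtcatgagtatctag
Bmp7: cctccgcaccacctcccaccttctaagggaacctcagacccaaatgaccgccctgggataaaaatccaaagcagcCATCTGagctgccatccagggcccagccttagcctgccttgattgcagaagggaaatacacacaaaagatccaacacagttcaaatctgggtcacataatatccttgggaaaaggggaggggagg
Bmp3: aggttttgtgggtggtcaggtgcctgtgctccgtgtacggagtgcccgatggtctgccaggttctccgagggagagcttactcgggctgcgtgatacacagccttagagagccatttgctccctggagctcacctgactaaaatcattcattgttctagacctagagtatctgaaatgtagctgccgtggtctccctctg
None of these windows overlapped an annotated UTR.

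Peaks had been called by the authors with SEACR in each replicate, keeping the top 1% of signal blocks, so each list has its own floor. The lists held 16788, 12969 and 13998 peaks in replicates 1, 2 and 3, with total signals (fragment pileup summed over all peak bases) of 822360552, 985881531 and 744342185. Because the signals were not scaled to depth, a peak is described by the percentile of its total signal within its own list, and a locus by its share of the list total. The read depth of each library was not measured. The source name of replicates 2 and 3 is adult kidney, against whisker pad in their titles. A gene peak was found at 12, 11 and 12 of 12 facial mesenchyme markers in replicates 1, 2 and 3, against 3, 3 and 1 of 12 adult kidney markers. The kidney counts are 25, 25 and 8.33%, and 24.9, 22.6 and 19.6% of all protein-coding genes had a gene peak. Surface ectoderm genes carried one in 7, 7 and 4 of 12, endothelial genes in 3, 2 and 2 of 6, skeletal muscle genes in 5, 5 and 5 of 6, and neuronal and glial genes in 1, 2 and 0 of 6. Nothing in the labels says whether the pads came from different embryos, so the spread between replicates may be partly technical.

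Every BMP ligand gene studied carried H3K4me1 on the gene in every replicate. All 6 genes had a gene peak in all 3 replicates, against 15.5% of all protein-coding genes. Because the genes were chosen with earlier results of these data known, this comparison is a description and not a test. The background was 24.9, 22.6 and 19.6% in replicates 1, 2 and 3 taken singly. Among the 14459 genes no shorter than Bmp4 (7.15 kb) and no longer than Bmp6 (155.2 kb), 15.5% also had a gene peak in all 3. Replicate 1, whose title and source name both give the whisker pad, had the same 6 of 6. The 6 genes held 19, 17 and 14 gene peaks and 17, 14 and 19 flank peaks in replicates 1, 2 and 3. Gene peaks fell short of replicate 1 in replicate 3 mainly at Bmp7, and flank peaks exceeded the other replicates there mainly at Bmp2. A flank peak was present in all 3 replicates at 4 of 6 genes (Bmp2, Bmp4, Bmp6 and Bmp7), against 8.54% of the genes with a flank, and 12.6, 10.7 and 11.7% in the single replicates. These background shares were not matched for flank length. Per 100 kb, the pooled flanks of the 6 genes (1258 kb) held 1.35, 1.11 and 1.51 peaks, against 0.431, 0.324 and 0.389 over the flanks of all genes. The loci took 0.253, 0.302 and 0.276% of the list signal, a mean of 0.277 ± 0.0249% (SD, n = 3). The mean percentile of their peaks, pooled over the 6 loci, was 54.9, 51.4 and 59.6, against 50.07, 50.04 and 50.12 for the gene and flank peaks of all genes. The loci differed, as the mean over replicates ran from 37.6 ± 7.25 at Bmp2 to 68.3 ± 12.6 at Bmp3, with 63.9 ± 2.99 at Bmp7 (SD, n = 3). Of the 100 locus peaks of the 3 lists, 49 had their highest pileup in intergenic DNA, 38 in an intron, 8 in a noncoding transcript, 4 in a coding exon and 1 in a UTR.

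**Figure D1:**
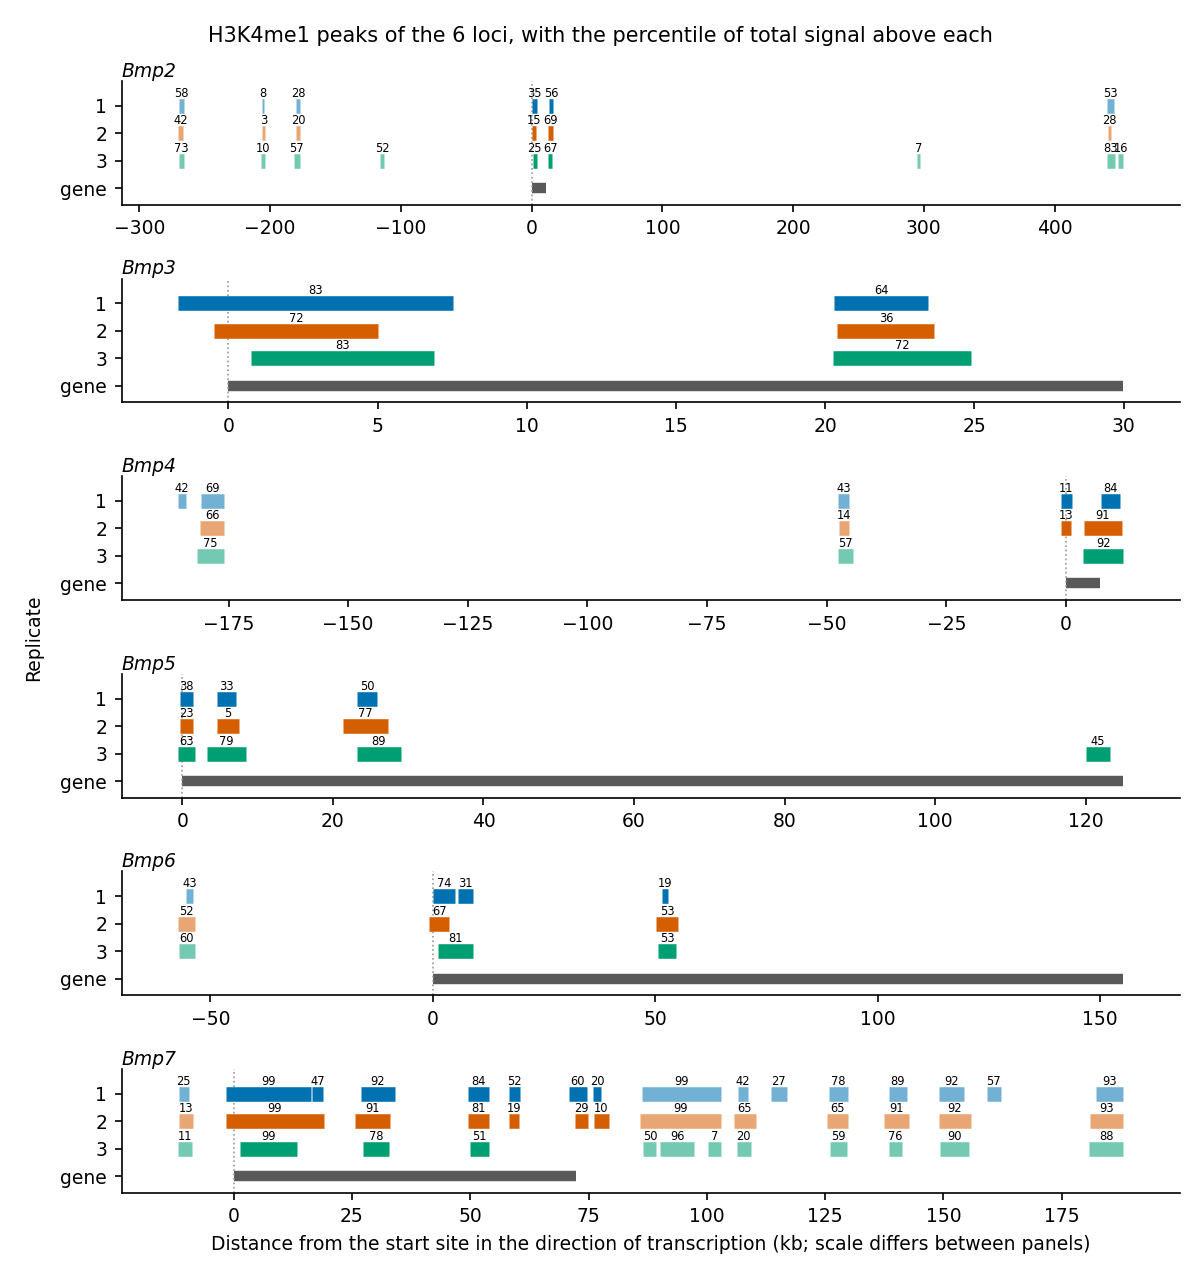
Peaks of the 6 loci in each replicate against the distance from the 5′-most start site, in kb along the direction of transcription, with a scale of its own in each panel. Full colour marks gene peaks, pale colour flank peaks, the grey bar the gene body, and the number above a peak its percentile of total signal. Bmp7 has a peak at the 99th percentile in its 5′ part in each replicate. This peak is over the start in replicates 1 and 2 and after it in replicate 3. Downstream of its 3′ end, Bmp7 has peaks at the 99th percentile in replicates 1 and 2 and at the 96th in replicate 3. Bmp2 has 6, 6 and 9 peaks in replicates 1, 2 and 3, up to 452 kb from the start. The highest of them are at percentiles 58.3, 68.6 and 82.7.

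Bmp2 and Bmp4 are closely related ligands that group together by sequence. Bmp2 (chr2:133552159-133562885, plus strand) had 2 gene peaks in each replicate and 4, 4 and 7 flank peaks. The count was thus the same on the gene in all replicates and higher in the flank in replicate 3. The gene peaks were a region just inside the gene, 0.068 to 4.04 kb after the start site, at percentiles 35.4, 15.2 and 25.3, and a region 12.4 to 16.1 kb after the start, beyond the 10.7 kb gene, at percentiles 56.1, 68.6 and 67.3. The second of these was the strongest region of the locus in mean percentile, 64.0 ± 6.88 (SD, n = 3). The next by mean percentile in all replicates was 270 to 266 kb upstream, at percentiles 58.3, 41.6 and 73.3, followed by the most distant one, 440 to 446 kb downstream, at 52.9, 27.8 and 82.7. A further 3 flank regions, 115.7 to 112.8 kb upstream and 294.6 to 296.9 and 448.9 to 452.4 kb downstream, had a peak in replicate 3 alone. Bmp2 lies between Fermt1, 606 kb upstream, and Hao1, 934 kb downstream, which left 784 kb of flank nearest to its start. Its flank peaks, 0.511, 0.511 and 0.893 per 100 kb, were above the 0.431, 0.324 and 0.389 per 100 kb over the flanks of all genes in each replicate. The Bmp2 locus took 0.0182, 0.0224 and 0.0462% of the list signal, so the value of replicate 3 was above both others.

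Bmp4 (chr14:46383520-46390669, minus strand) had 2, 2 and 1 gene peaks and 3, 2 and 2 flank peaks. Its strongest region, 3.57 to 11.9 kb after the start site, was at percentiles 84.4, 91.1 and 92.1 and was present in every replicate. In replicates 2 and 3 its peak lay over the last part of the gene and the DNA beyond it. In replicate 1 the peak, 7.29 to 11.4 kb after the start, lay wholly beyond the 7.15 kb gene. The start-site region, 1.10 kb before to 1.33 kb after the start, was weak, at percentiles 11.4 and 13.5 in replicates 1 and 2, and had no peak in replicate 3. Among the upstream regions, the strongest was 182 to 176 kb away at percentiles 68.7, 65.9 and 75.0, overlapping the noncoding transcripts Gm49319, E130120K24Rik and Rubie. The next in order and the most distant, 188 to 184 kb upstream, had peaks at percentiles 41.9, 10.6 and 66.8, but the midpoint was nearest to Bmp4 only in replicate 1 and nearer to Cdkn3 in the others. The Bmp4 locus took 0.0216, 0.0280 and 0.0287% of the list signal, a mean of 0.0261 ± 0.00393% (SD, n = 3).

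Bmp5, Bmp6 and Bmp7 are the other main group of ligands by sequence, with known roles in skeletal elements (Bmp5), iron balance (Bmp6) and kidney, eye and limb development (Bmp7). Bmp5 (chr9:75775364-75900310, plus strand) had 3, 3 and 4 gene peaks and no flank peak in any replicate. Its start-site region, 0.522 kb before to 1.70 kb after the start, was at percentiles 37.8, 23.0 and 62.9. The intronic regions 3.28 to 8.51 kb and 21.3 to 29.0 kb after the start were at percentiles 32.7, 5.19 and 79.1 and at 49.8, 76.6 and 89.5. In each of these regions replicate 3 was the highest. A peak 120.0 to 123.2 kb into the gene, over the antisense gene Gm26903, was in replicate 3 alone, at percentile 45.5. The locus took 0.00862, 0.0142 and 0.0325% of the list signal, the widest relative spread of the 6 genes.

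Bmp6 (chr13:38345107-38500302, plus strand) had 3, 2 and 2 gene peaks and 1 flank peak in each replicate. The strongest region, 0.790 kb before to 9.11 kb after the start site, was at percentiles 74.0, 67.3 and 80.8. A region 50.2 to 55.2 kb into the gene was at 19.3, 52.9 and 53.0, with its midpoint 3.33 kb from the nearest protein-coding start site, the other annotated start of Bmp6. The flank region, 57.2 to 53.5 kb upstream, was at 42.7, 52.4 and 59.9. The Bmp6 locus took 0.0135, 0.0161 and 0.0199% of the list signal. All 3 of its regions were present in all replicates.

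Bmp7 (chr2:172868012-172940321, minus strand) had 7, 6 and 3 gene peaks and 9, 7 and 9 flank peaks. A broad region of 20.7 kb ran from 1.65 kb before to 19.1 kb after the start site, over the start of the gene, at percentiles 99.4, 99.4 and 99.3. Its largest single peak was 17.9, 20.7 and 12.1 kb long. Only 80, 69 and 247 peaks of the respective lists were as long or longer, and 104, 75 and 104 were as strong or stronger. The second region, 17.2 kb long and 85.9 to 103.0 kb after the start, beyond the 72.3 kb gene, was at percentiles 99.0, 99.0 and 96.0. In replicate 3 this region was split into separate peaks, and 96.0 is the percentile of the strongest, 7145 bp long. The weakest of them was at percentile 6.96. The third region by mean percentile, 149 to 156 kb after the start, was at 91.8, 92.2 and 90.1. The most distant region, 181 to 188 kb after the start, was at 92.8, 92.8 and 88.1. The strongest peaks of these regions stood near the top of every list, replicate 3 included. In contrast, 3 gene regions, at 58.1 to 60.5, 70.8 to 74.8 and 75.9 to 79.3 kb, had peaks at percentiles 52.4, 60.4 and 19.6 in replicate 1 and 19.2, 28.6 and 9.85 in replicate 2, and none in replicate 3. The flank of Bmp7 held 6.81, 5.30 and 6.81 peaks per 100 kb of its 132 kb, the highest density of the 6 genes. The Bmp7 locus took 0.178, 0.211 and 0.132% of the list signal, lowest in replicate 3, a mean of 0.173 ± 0.0397% (SD, n = 3).

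Bmp3 encodes a ligand known to oppose other BMPs rather than to activate Smad1 and Smad5. Bmp3 (chr5:98854415-98884396, plus strand) had 2 gene peaks and no flank peak in each replicate. The first region, 1.68 kb before to 7.54 kb after the start site, was at percentiles 82.6, 72.4 and 82.8. The second, 20.3 to 24.9 kb into the gene, was at 64.0, 35.6 and 72.4. Its neighbours Cfap299 and Prkg2 begin or end within 52.4 and 45.4 kb, so that the flank was only 57.1 kb long. The locus took 0.0125, 0.0111 and 0.0173% of the list signal.

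**Figure D2:**
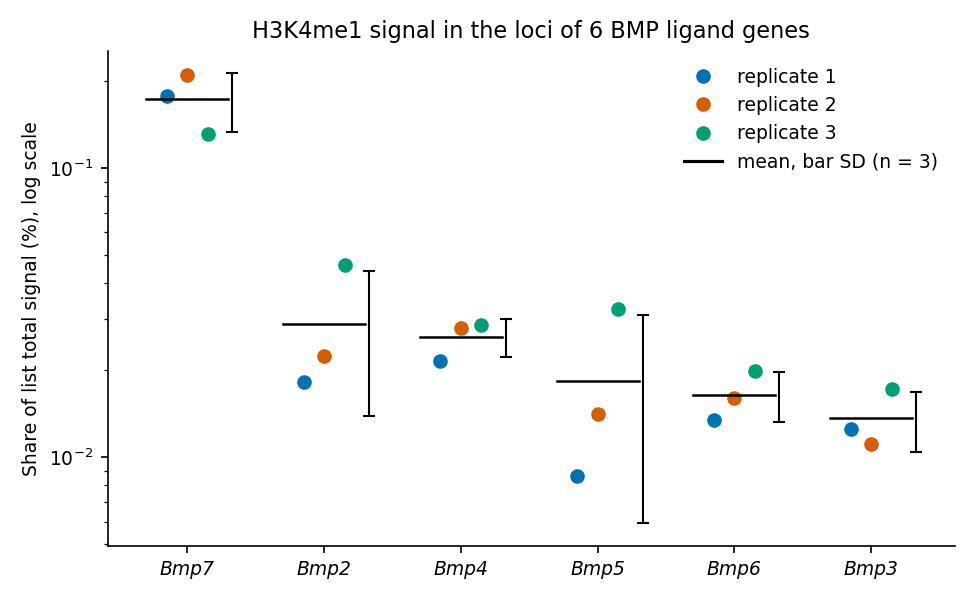
Share of the total signal of each replicate's peak list in the gene and flank peaks of each locus, in percent on a log scale, with each replicate as a point, the mean as a line and the SD as a bar (n = 3). The 3 values of Bmp7 sit between 0.132 and 0.211%, above all values of the other genes, whose ranges overlap from one to the next.

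In the order of mean share, Bmp7 (0.173%) was followed by Bmp2 (0.0290%), Bmp4 (0.0261%), Bmp5 (0.0184%), Bmp6 (0.0165%) and Bmp3 (0.0136%). Bmp7 exceeded Bmp2 in 3 of 3 replicates, by 0.144 ± 0.0531 percentage points (SD, n = 3), and their ranges did not overlap. The ranges of each of the other 4 neighbouring pairs overlapped. Bmp2 was above Bmp4 in 1 of 3 replicates, Bmp4 above Bmp5 in 2 of 3 and Bmp5 above Bmp6 in 1 of 3. Without replicate 3 the mean of Bmp5 was 0.0114%, below Bmp6 (0.0148%) and Bmp3 (0.0118%), and Bmp4 (0.0248%) was above Bmp2 (0.0203%). Bmp6 was above Bmp3 in 3 of 3 replicates, but by 0.00286 ± 0.00202 percentage points (SD, n = 3), with overlapping ranges. An exact two-sided sign-flip permutation test over the 3 replicates gave p = 0.25 for Bmp7 against Bmp2 and for Bmp6 against Bmp3, adjusted to 0.625 over 5 comparisons, and 0.25 is the smallest p that 3 replicates allow. Among all 21755 genes, the median share was 0, and Bmp7 ranked 64th by mean share, at 64, 30 and 97 in the single replicates. The others ranked 1026 (Bmp2), 1141 (Bmp4), 1554 (Bmp5), 1688 (Bmp6) and 1921 (Bmp3). All 5 of these ranked highest in replicate 3, where Bmp2 was at 627 against 1558 and 1364 in replicates 1 and 2, and Bmp5 at 913 against 2624 and 1959. The genes next to Bmp7 in this order were Magi1, Shb and 2010111I01Rik above it and Bcl11a, Boc and Frmd4a below it, with mean shares from 0.176 to 0.171%. Those next to Bmp2 were Ttc7b, Pak4, Samd4b, Fgfr3, Col5a1 and Asic2, with mean shares from 0.0290 to 0.0289%. These genes were picked as neighbours in this order, so small differences from the BMP genes they flank were fixed by the choice. The differences were far less than the SD of those BMP genes between replicates, so nearby ranks are not told apart.

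Peaks at the start sites were counted next. The window of 1 kb on each side of the start lies inside the gene window, so this count cannot exceed that of genes with a gene peak. A peak lay within 1 kb of the 5′-most start in all 3 replicates at Bmp2, Bmp3 and Bmp5, that is 3 of 6, against 4.04% of all genes. At Bmp4, Bmp6 and Bmp7 this held in replicates 1 and 2 only, and the nearest peak of replicate 3 began 3568, 1109 and 1291 bp after the start. The share of all genes with a peak there was also lower in replicate 3, at 6.18%, than in replicates 1 and 2, at 9.65 and 9.66%. The start base itself was under a peak in all 3 replicates only at Bmp5. At Bmp2 it was under none, the peaks beginning 68, 518 and 815 bp after it. At Bmp3 it was covered in replicates 1 and 2, with the peak of replicate 3 beginning 768 bp after it, and at Bmp6 in replicate 2 alone. The Bmp5 start differs from the others in base composition. GC content within 1 kb of the start was 37.3% at Bmp5, against 59.6% at Bmp2, 55.5% at Bmp3, 52.7% at Bmp4, 59.2% at Bmp6 and 64.4% at Bmp7, with a median of 51.3% over all genes. The 250 bases before the RefSeq start of Bmp5 (chr9:75775115-75775364, plus strand, GRCm38.p6) are shown as the only start covered in each replicate, with no motif of those searched and hence no capitals.
Bmp5 promoter: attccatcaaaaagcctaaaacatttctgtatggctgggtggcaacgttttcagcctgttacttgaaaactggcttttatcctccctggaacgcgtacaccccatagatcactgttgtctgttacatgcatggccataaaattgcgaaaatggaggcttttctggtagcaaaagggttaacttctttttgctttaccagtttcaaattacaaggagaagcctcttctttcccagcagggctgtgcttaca
RefSeq promoter sequences were matched for 3 of the 6 genes, Bmp4, Bmp5 and Bmp6.

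**Figure D3:**
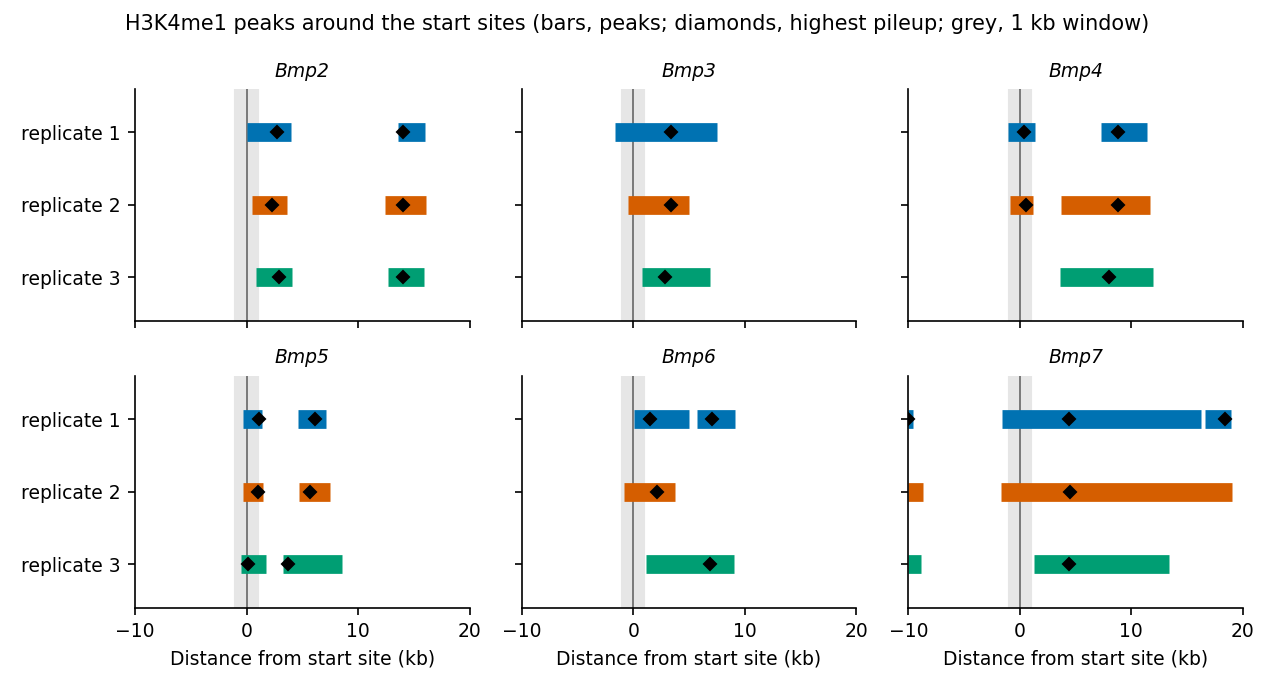
Peaks of each replicate from 10 kb before to 20 kb after the start site of each gene, in kb, with the highest pileup of each peak as a diamond and the 1 kb window on each side of the start in grey. Peaks of replicate 3 begin after the window at Bmp4, Bmp6 and Bmp7, and the maxima of the peaks nearest to the starts of Bmp2, Bmp3, Bmp6 and Bmp7 lie past the window.

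The counts above depend on which start site is nearest, and this bears most on Bmp4. The predicted coding gene Gm15217 has its start site between Bmp4 and the downstream gene desert, so Bmp4 was left with a flank of 180 kb upstream and 0 kb downstream. All peaks between the neighbouring genes were therefore counted as well, with predicted models (Gm or Rik symbols) set aside, a count added after the first results were seen. Between Ddhd1 and Cdkn3, an interval of 1102 kb, there were 19, 18 and 19 peaks in replicates 1, 2 and 3, of which 5, 4 and 3 had been counted for Bmp4. They took 0.103, 0.125 and 0.166% of the list signal, a mean of 0.131 ± 0.0321% (SD, n = 3). They formed 22 regions, 15 of them in all 3 replicates, with 7 of those upstream of Bmp4 and 7 downstream. The strongest was a region of 13.1 kb, 225 to 212 kb upstream, at percentiles 97.3, 95.5 and 98.3, above the strongest region of the Bmp4 locus itself in each replicate. Downstream, the strongest was 368 to 376 kb from the start, at 91.9, 91.1 and 95.2. Between Tfap2c and Spo11, an interval of 419 kb around Bmp7, there were 26, 20 and 19 peaks, of which 16, 13 and 12 had been counted for Bmp7, with a mean share of 0.220 ± 0.0421% (SD, n = 3). Around Bmp2, an interval of 1551 kb held 8, 8 and 11 peaks with a mean share of 0.0379 ± 0.0201% (SD, n = 3). Counted this way, Bmp4 was above Bmp2 in every replicate, as the 0.103% of its lowest replicate exceeded the 0.0609% of the highest of Bmp2. In replicate 3 the Bmp4 and Bmp7 intervals were close, at 0.166 and 0.173%. Which gene each of these regions acts on was not measured.

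**Figure D4:**
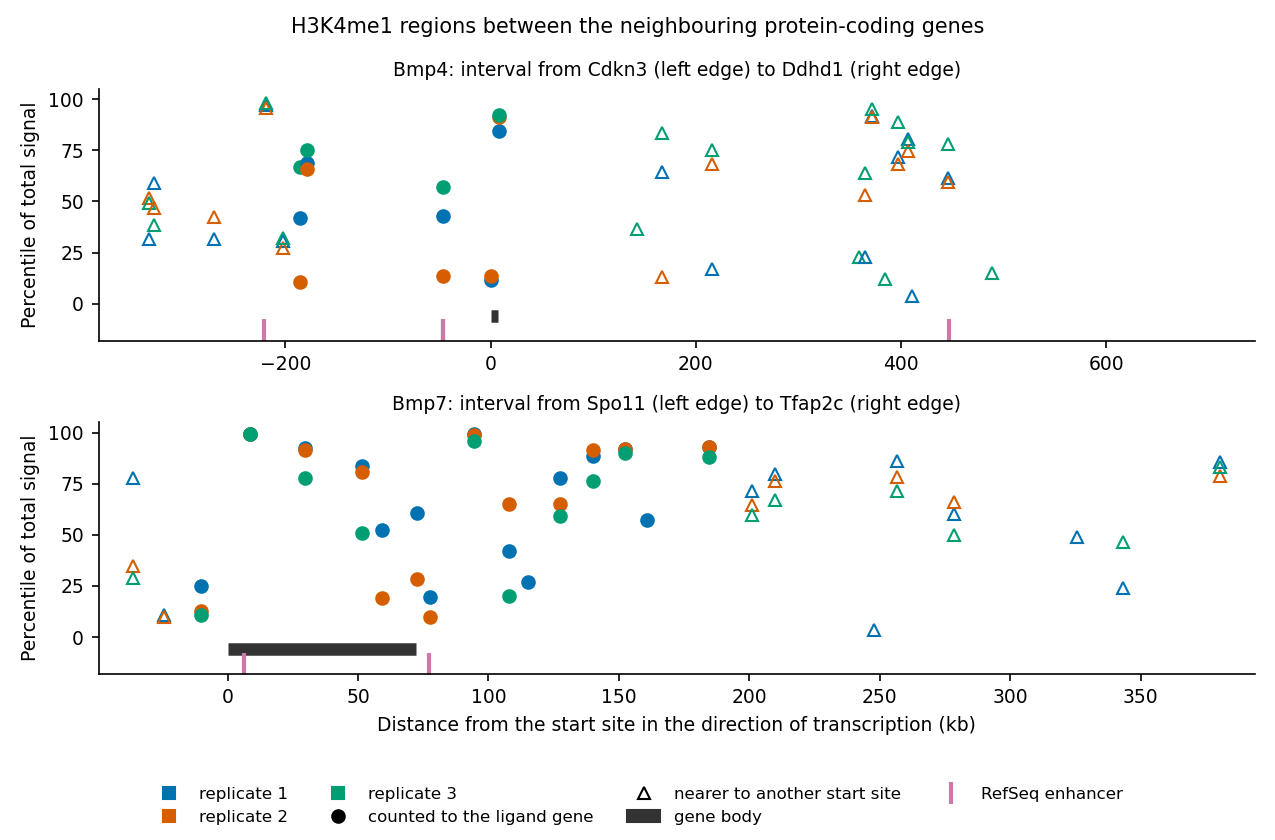
Percentile of total signal of every region between the neighbouring protein-coding genes of Bmp4 (top) and Bmp7 (bottom), by replicate, against the distance of its middle from the start site in kb. Filled circles are regions with at least 1 peak counted for the ligand gene, open triangles regions nearer to another start, and ticks RefSeq enhancers; most regions around Bmp4 are triangles and the regions from the start of Bmp7 to 188 kb after it are circles.

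Enhancers that the RefSeq annotation lists for these intervals were then looked up, a comparison also added after seeing the data. Of 10 enhancer elements, some of which overlap, 5 lay under a peak in all 3 replicates, 1 in 2 replicates and 4 in none, against 25.7% of all 1015 RefSeq enhancers with a peak in all 3. RefSeq gives 101 elements from the VISTA transgenic assay with activity in nose or facial mesenchyme, and 67.3% of these had a peak in all 3. In the Bmp4 interval, the 13.1 kb region covers VISTA element mm387 (chr14:46610670-46611777), listed with activity in branchial arch, nose and facial mesenchyme. Its nearest coding start is that of Cdkn3, at 149 kb. In replicate 3 the highest pileup of this region fell inside the element, at the 200 bp shown here with no motif in capitals (chr14:46611303-46611502, plus strand), whereas in replicates 1 and 2 it fell in the same region but outside the element.
mm387: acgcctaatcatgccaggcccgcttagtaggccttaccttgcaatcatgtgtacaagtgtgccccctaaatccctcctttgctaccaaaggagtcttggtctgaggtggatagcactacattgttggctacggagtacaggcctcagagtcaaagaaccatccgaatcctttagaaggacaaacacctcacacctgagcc
Element mm384 (chr14:45943840-45945127), 446 kb downstream and listed for limb, branchial arch, nose, neural tube and facial mesenchyme, was under peaks at percentiles 61.6, 59.7 and 78.3.

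The upstream region of Bmp4 nearest to the gene, 47.7 to 44.4 kb from the start, covers the overlapping elements ECR2 and CON3.8, of which the second is listed for fore- and hindlimbs and the orofacial region. Its percentiles were 43.0, 13.8 and 57.1, so that it was below the middle of the list in replicates 1 and 2. The stretch with the annotated binding sites of Msx2, itself a BMP target gene, and of Pitx1 is shown (chr14:46436738-46436953, plus strand), with the Msx2 site as the first run of capitals and the Pitx1 site as the second.
ECR2: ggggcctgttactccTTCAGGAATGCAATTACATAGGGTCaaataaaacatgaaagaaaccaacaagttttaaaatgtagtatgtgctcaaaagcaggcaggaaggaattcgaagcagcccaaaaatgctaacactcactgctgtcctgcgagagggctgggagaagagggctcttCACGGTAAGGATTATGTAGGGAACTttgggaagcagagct
At Bmp7, the 480 bp element in an intron (chr2:172933771-172934250), listed for eye, limb, Wolffian duct and forebrain, was inside the broad region in all 3 replicates. The heart element mm75, 76.2 to 78.4 kb after the start, was under peaks at percentiles 19.6 and 9.85 in replicates 1 and 2 and under none in replicate 3. No peak lay over the limb and osteoblast elements of Bmp2, 112 to 117 and 157 to 158 kb downstream, in any replicate. The same held for the elements Ex4r and ECRD of Bmp5, about 94.4 to 100.6 kb into the gene, which are listed for nasal cartilages, limbs and ribs, and for the lateral rib. A peak absent from a list was below the top 1% of blocks, which does not show that the mark was absent.

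Most regions of the loci were shared. The peaks merged into 38 regions, of which 28 (73.7%) were in all 3 replicates, 4 in 2 and 6 in 1, against 46.3% in all 3, 23.5% in 2 and 30.1% in 1 over the 19251 merged regions of the genome. The level of the shared regions, however, differed between replicates, for the most part along with base composition. The median log2 ratio of the share of list signal in replicate 3 to that in replicate 2 was -0.64 over the 10 shared regions of Bmp7. Median GC content is given over all regions of a gene, shared or not, and was 52.4% for the 15 of Bmp7. At Bmp5 the ratio was 0.94, with a median of 38.4% GC. At Bmp2, Bmp3, Bmp4 and Bmp6 the ratio was 0.53, 0.71, 0.62 and 0.25, with 42.0, 44.8, 44.8 and 48.5% GC. Of the 10 Bmp7 regions, 9 had a lower share in replicate 3 than in replicate 2, whereas 16 of the 18 regions of the other 5 genes had a higher one. The same held across the genome: the median log2 ratio was 0.67 over 2456 regions under 45% GC, 0.05 over 4116 regions of 45 to 50% and -0.65 over 2344 regions over 50%. In the same bands the regions of the BMP loci had medians of 0.93 (11 regions), 0.00 (8 regions) and -0.56 (9 regions). Of the 9 regions over 50% GC, 8 were of Bmp7, so gene and GC content largely coincide in that band. The other, just inside Bmp2, had the highest GC content of the 28 regions, 55.9%, and a ratio of 0.24. The gap in share between Bmp7 and the other genes was smallest in replicate 3. What part GC content has in these differences was not tested.

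**Figure D5:**
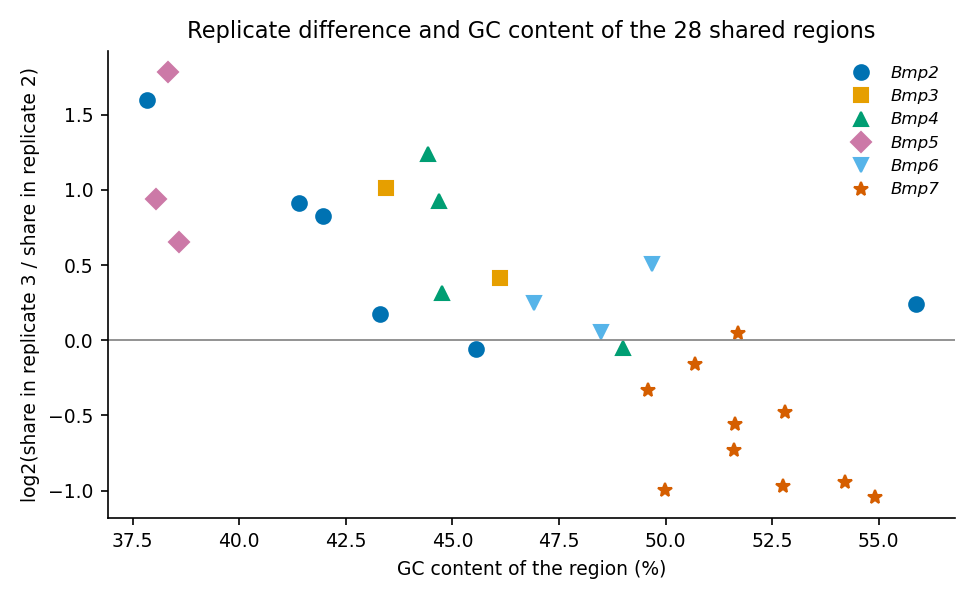
Log2 ratio of the share of list signal in replicate 3 to that in replicate 2 against the GC content in percent of each of the 28 regions present in all 3 replicates, with a symbol for each gene. Of the 10 regions of Bmp7, at 49.6 to 54.9% GC, 9 lie below 0 and 1 at 0.05, and those of Bmp5, at 38.0 to 38.6% GC, lie above 0. The region of highest GC content, at 55.9% in Bmp2, lies at 0.24.

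Over the rest of the BMP pathway, 21 of 43 listed genes (48.8%) had a gene peak in all 3 replicates and 13 had none in any. Of all protein-coding genes, 15.5% had one in all 3, the share to set beside each count below. Of 8 other BMP and GDF ligands, Gdf5 and Gdf6, known for roles in joints and skeleton, had one in all 3, while Bmp8a, Bmp8b, Bmp10, Bmp15 and Gdf2 had none. Their mean shares were at most 0.0105%, below that of each of the 6 genes studied. All 7 receptor genes had a peak in at least 1 replicate, and 4 had one in all 3, the type I receptor genes Bmpr1a, Bmpr1b, Acvr1 and Acvrl1. Among 6 Smad genes, Smad1, Smad5, Smad6 and Smad7 had a peak in all 3 and Smad9 had none. The inhibitory Smads had the highest shares of this list, with 0.129 ± 0.0274% (SD, n = 3) at Smad6 and 0.159 ± 0.0173% (SD, n = 3) at Smad7, and the value of Smad7 differed from that of Bmp7 by less than the SD of Bmp7. Of 16 antagonists and modulators, 7 had a peak in all 3 and 7 in none. Bmper, a secreted BMP modulator, and Fstl1, a follistatin-like protein, were the highest of them, with 0.0911 ± 0.0198 and 0.0745 ± 0.00879% (SD, n = 3). Nog, which encodes noggin, had no gene peak but 2, 1 and 1 flank peaks, and Chrd, which encodes chordin, had neither. Of 6 target genes, Id1, Id3, Msx1 and Msx2 had a gene peak in all 3, and Msx2 had 10, 10 and 9 flank peaks.

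Motif letters were counted in 300 bp windows centred on the highest pileup of the 28 shared regions, on both strands, and in the windows of 8916 regions shared over the genome. The E-box CATATG was in 5 of 28 windows (17.9%), against 4.79% genome-wide, in 3 upstream regions of Bmp2 and in the strongest regions of Bmp3 and Bmp4. The Smad-type motif GGCGCC was in 3 windows (10.7%, against 2.23%), at Bmp6 and Bmp7. The TCF/LEF motif CTTTGAT was in 3 (10.7%, against 3.94%), at Bmp5 and Bmp7, and its variant CTTTGAA in 1 (3.57%, against 5.63%). The E-box CAGATG was in 7 (25%, against 27.5%), the homeodomain motif TAATTA in 2 (7.14%, against 4.56%) and the AP-2 motif GCCNNNGGC in 2 (7.14%, against 12.4%). The AP-1 motif TGACTCA and the Smad-type motif GTCTAGAC were in 0 of 28, against 5.73 and 0.482%. With 28 windows these counts are a description, and no match is evidence that the factor was bound.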

How the data were processed

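H3K4me1 CUT&Tag had been done on wild-type whisker pads (3 samples, 1 group; the 3 IgG samples were not analysed here). The authors sequenced paired-end reads and called peaks per replicate with SEACR 1.3 in stringent mode, without IgG, keeping the top 1% of blocks. The submitters' processing notes also name Bowtie2 2.3, SAMtools 0.1.19, bedtools and mm10. The deposited columns are total and maximum signal, that is, unscaled fragment pileup. The treatment of duplicates is not given in the sources used here. Blocks called by a share of the list do not measure enrichment over IgG.

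Genes were the protein-coding genes of GENCODE vM21 on chromosomes 1 to 19 and X, and sequences came from GRCm38. Peak ends all lay within its chromosomes. Percentiles, shares, counts and overlaps (at least 1 bp) were computed with Python 3.11.15, pandas 2.3.3 and pysam 0.24.0, and the assignment of peaks to genes was tested on simulated peaks. Coordinates are 1-based. With 1 group, no group comparison could be made, and only the order of the genes was tested (exact sign-flip permutation). The genes and lists were chosen with earlier results of these data known. Named were the 6 genes, their neighbours, the listed pathway and marker genes, the genes next to the highest 2 in rank, start-site regions, the 3 strongest regions in all replicates and the most distant one. The whole intervals, with the regions named in them, the RefSeq enhancers and the GC bands were added after the data were seen. Alternatives changed the list cut, the windows, the flank limit, the start sites, the signal measure and the replicates.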

Additional observations from a re-analysis of the deposited data

How the results depend on the processing

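Of 71 alternative values for the 7 main results, 57 stayed within the spread between replicates or, for counts, within 1.5 times the reported value. A flank limit of 1000 kb and the use of 5′-most start sites alone returned the reported values unchanged, and these are among the 57. So is the count of 21 regions in all replicates, against 28, when peaks had to overlap by at least 50% of both. Keeping the stronger 50% of each list left 5 of 6 genes with a gene peak in all replicates, since Bmp5 had none in replicate 1, and gave means of 10.3 gene peaks, 10 flank peaks, percentile 51.0 within the shortened list, 13 regions in all replicates, 1 gene with a start-site peak and 0.307% of the signal, against 16.7, 16.7, 55.3, 28, 3 and 0.277%. The strongest 10000 peaks gave 18 regions in all replicates and 1 gene with a start-site peak. Start-site peaks were found at 0 genes when the highest pileup had to lie in the window and at 5 within 2.5 kb. A flank limit of 100 kb gave 9.33 flank peaks and 0.234% of the signal, with the Bmp2 flank peaks falling to 0. Counting every peak between the neighbouring genes gave 0.440%.

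Without one replicate, genes with a gene peak were 6 throughout, gene peaks 15.5 to 18, flank peaks 15.5 to 18, the percentile 53.2 to 57.3, regions in all remaining replicates 27 to 32, genes with a start-site peak 3 to 6 and the share 0.264 to 0.289%. The highest start-site count was the one without replicate 3. Bmp7 had the highest share in 11 of 11 settings and Bmp4 the second highest in 6, counting the settings that changed no value. With predicted coding models left out, Bmp4 had 6 flank peaks in place of 2.33. No paired analysis was possible because the samples of the other group, IgG, were not analysed here. Without IgG, the background under any peak was not measured, and a list of top blocks sets what could be detected.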
